A study of Homo sapiens with 8 samples.

Results

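Ephrins and their Eph receptors were followed in SRA01/04 cells, a human lens epithelial line immortalised with a viral large T antigen, by RNA sequencing of polyadenylated RNA. The genes described are EFNA1, EFNA4, EFNA5, EFNB1 and EFNB2, which encode ephrins, and EPHA2, EPHA4, EPHB2, EPHB3 and EPHB4, which encode Eph receptors. They were chosen by symbol and make up 10 of the 58735 genes in the count table. The 4 shSmurf1 libraries came from cells carrying a short hairpin RNA against SMURF1, a ubiquitin ligase of the TGF-β and BMP pathways. The 4 shControl libraries came from cells carrying a negative control hairpin, which the labels give as WT in genotype. Both groups had received 20 ng/ml recombinant TGF-β2 for 48 h, and no library without TGF-β2 was included, so every difference given here is a difference between hairpins under TGF-β2. The labels describe knockdown cell lines without saying whether each was a clone or a pool, and they name no second hairpin against SMURF1.

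Ephrins are ligands held on the cell surface, the A type by a lipid anchor and the B type by a transmembrane segment, and Eph receptors are the largest family of receptor tyrosine kinases. A ligand on one cell meets a receptor on its neighbour, and signals run forward into the receptor-bearing cell and in reverse into the ligand-bearing cell, where they govern repulsion, adhesion and boundaries between cells. In the lens, mutations of EPHA2 cause inherited cataract in people, and loss of ephrin-A5, the product of EFNA5, causes cataract in mice.

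SMURF1 itself averaged 51.1 ± 0.491 CPM in shSmurf1 and 88.9 ± 3.17 CPM in shControl (mean ± SD, n = 4 each). CPM is the read count scaled to a common, TMM-adjusted library size. The log2 fold change of SMURF1 was -0.80 ± 0.055 (adjusted p = 2.86e-09 by edgeR). Log2 fold changes are given ± SE. Library totals ranged from 14688651 to 16789144 counts in shSmurf1 and from 15000813 to 17030394 in shControl. Replicate 3 of shSmurf1 stood apart: against the other shSmurf1 libraries the chi-square per degree of freedom over genes was 9.86 to 13.1, compared with 2.79 to 3.42 among the other shSmurf1 libraries and 2.60 to 4.08 among shControl libraries. Its deviations from the mean of all 4 shSmurf1 libraries fell with the G+C content of the gene (Spearman ρ = -0.78). The correlation was taken across genes of average log2 CPM above 3, which are not independent. Those of the other 3 shSmurf1 libraries went the other way (0.32 to 0.61). Deviations from a shared mean sum to 0 for each gene, so an opposite trend in the other libraries was partly built in. All 10 genes described had a lower CPM in shSmurf1 replicate 3 than the mean of the other 3 shSmurf1 libraries. Over these 10 genes the log2 ratio of the 2 values had a Spearman ρ of -0.28 with G+C content (Pearson 0.05). EFNA5, the lowest of the 10 in G+C content at 43.9%, had the lowest ratio, at -0.67. Results that turn on shSmurf1 replicate 3 are given with and without it. Of 12 lens epithelial markers, PAX6, SIX3, CDH2 and GJA1 were tested. CRYAB had 37 counts over the shSmurf1 libraries and 36 over the shControl libraries, and PROX1 had 11 and 12. FOXE3, CRYAA, SOX1, MAF, PITX3 and CDH1 each had 10 or fewer counts over all 8 libraries. The summed level of the 12 markers was 366 to 412 CPM in shSmurf1 and 454 to 463 CPM in shControl. GJA1 (-0.83) and SIX3 (-0.37) were called lower. The 15 RNA quality markers, mitochondrial messenger RNAs plus MALAT1 and NEAT1, summed to 42749 to 53040 CPM in shSmurf1 and 34345 to 37490 CPM in shControl, and 13 of them were called higher. The 10 endothelial markers summed to 159 to 192 CPM in shSmurf1 and 158 to 176 CPM in shControl. PECAM1, CDH5, TEK and KDR averaged under 1 CPM in both groups. FLT1 and EGFL7 made up most of that sum, at 60.4 and 69.1 CPM in shSmurf1 and 58.0 and 68.0 CPM in shControl. TIE1 (0.27) and ESAM (0.98) were called higher. VWF went the other way without passing (-0.90, adjusted p = 0.0775, edgeR), at 0.946 CPM in shSmurf1 and 1.76 CPM in shControl. CLDN5 lay at 0.44 and did not pass. The 9 immune markers summed to 12.3 to 15.9 CPM in shSmurf1 and 7.08 to 9.46 CPM in shControl, with CD3E and LYZ at 0 in all libraries and CD14, at 13.1 CPM in shSmurf1 and 6.76 CPM in shControl, called higher (0.95). The 9 fibroblast markers summed to 1952 to 2669 CPM in shSmurf1 and 2472 to 2697 CPM in shControl, most of it COL1A1. Of the 8 fibroblast markers tested, LUM (2.90), COL3A1 (1.30) and PDGFRB (0.38) were called higher and COL1A2 (-1.01) lower. The 13 lens fibre markers summed to 6.44 to 8.26 CPM in shSmurf1 and 7.08 to 9.40 CPM in shControl, with 5 at 0 throughout. The part of these marker differences in the results below was not tested.

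All 10 ephrins and Eph receptors passed the filter on low counts. By edgeR's quasi-likelihood test with Benjamini-Hochberg adjustment over 15647 genes, 1 of the 10 fell (EFNA5) and 2 rose (EFNA1 and EFNB1) at an adjusted p under 0.05, against 12.2% of all genes tested called lower and 10.3% called higher. With 3 of 10 called beside 22.5% of all genes, the number of changed members was close to the background. The median log2 fold change of the 10, shSmurf1 over shControl, was 0.06, beside 0.01 over all genes. All 3 called members are ligands. None of the 5 receptors passed in edgeR or limma-voom, whereas DESeq2 called 1 of them (EPHB2, adjusted p = 0.0469). Of all genes tested, DESeq2 called 22.7% and limma-voom 22.4%. The groups of CPM values did not overlap for EFNA1 (higher in shSmurf1) and for EFNA5, EFNB2 and EPHB2 (lower in shSmurf1), that is 1 higher beside 10.6% of all genes tested, 3 lower beside 13.1%, and 4 in all beside 23.7%. Without shSmurf1 replicate 3, 3 members were called higher (EFNA1, EFNB1 and EPHA2) and 2 lower (EFNA5 and EPHB2), beside 16.4% and 17.3% of all genes. With no filter on low counts, 1 was higher and 2 were lower, beside 4.87% and 5.71% of 33093 genes, and with the replicate number as a block the calls were 2 higher and 1 lower, beside 9.06% and 11.3% of all genes, or 20.4% in either direction. The plot of CPM by library shows these values.

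**Figure D1:**
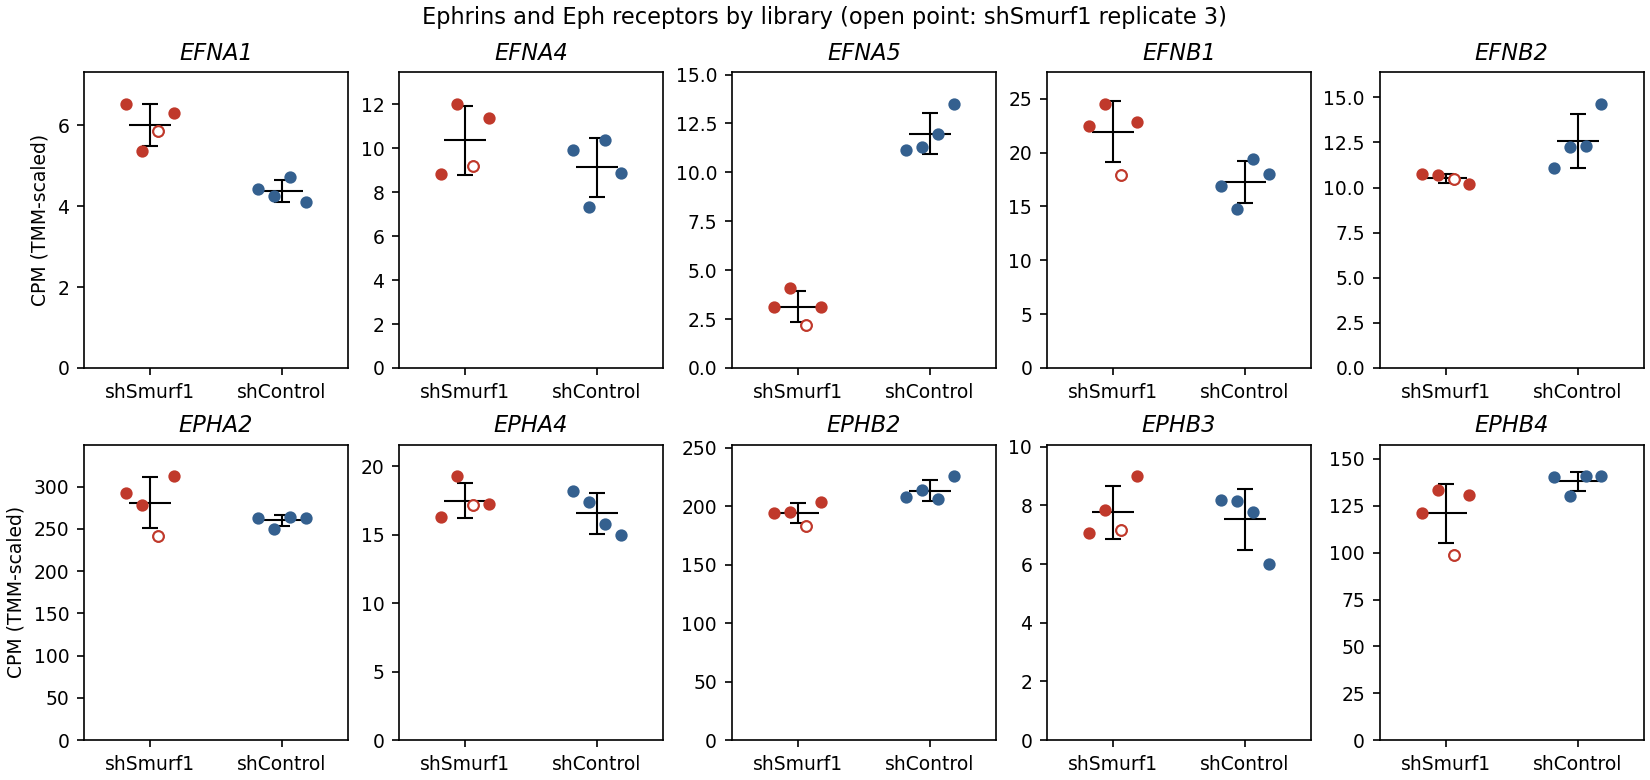
CPM of the 10 ephrins and Eph receptors in each library, with shSmurf1 left and shControl right; points are libraries, the open point is shSmurf1 replicate 3, and bars give mean ± SD (n = 4). EFNA5 lies between 2.17 and 4.10 CPM in shSmurf1 and between 11.2 and 13.5 CPM in shControl.

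Levels per exon length set the receptors EPHA2, EPHB4 and EPHB2 above the ligands among the 10 members. RPKM, here CPM per kilobase of exon in GENCODE 29, put EPHA2 first in both groups, at 67.6 ± 7.17 in shSmurf1 and 62.5 ± 1.63 in shControl. Among the 10 members the order in shControl ran EPHA2, EPHB4 (21.5), EPHB2 (17.04), EFNA4 (7.23), EFNB1 (5.21), EFNB2 (2.51), EPHA4 (2.19), EFNA5 (2.10), EFNA1 (1.72) and EPHB3 (1.66). The ranges of the 4 libraries overlapped between the neighbours EFNA4 and EFNB1, EFNB2 and EPHA4, EPHA4 and EFNA5, and EFNA1 and EPHB3. In shSmurf1 the order ran EPHA2, EPHB4 (18.8), EPHB2 (15.5), EFNA4 (8.20), EFNB1 (6.62), EFNA1 (2.37), EPHA4 (2.32), EFNB2 (2.10), EPHB3 (1.71) and EFNA5, with overlapping ranges for EPHB4 and EPHB2, EFNA4 and EFNB1, and EFNA1 and EPHA4. There EFNA5 was the lowest of the 10, at 0.548 ± 0.138 RPKM, and its range overlapped that of no other family member.

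EFNA5 is encoded on the minus strand of GRCh38 chromosome 5 from 107376889 to 107670895 (ENSG00000184349; gene positions are those of GENCODE 29). The bases before the RefSeq start sites of EFNA5, EFNA1 and EFNB1 are shown because these are the 3 of the 10 genes that passed the test. The windows hold the 250 bases before the RefSeq start on GRCh38.p14, 5′ to 3′ on the gene's strand, and capitals mark matches to 4 motifs searched on both strands: CAGAC of SMAD proteins, ACGTG of the hypoxia response, GGAATG of TEAD factors and CAGGTG, the E2-box of SNAI and ZEB repressors. No motif contains another.
EFNA5, chr5:107670938-107671187, minus strand: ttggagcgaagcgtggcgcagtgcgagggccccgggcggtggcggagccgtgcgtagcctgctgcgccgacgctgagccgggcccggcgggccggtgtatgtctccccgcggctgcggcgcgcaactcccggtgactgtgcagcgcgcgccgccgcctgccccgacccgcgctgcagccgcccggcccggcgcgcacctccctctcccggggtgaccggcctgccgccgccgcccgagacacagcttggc
EFNA1, chr1:155127626-155127875, plus strand: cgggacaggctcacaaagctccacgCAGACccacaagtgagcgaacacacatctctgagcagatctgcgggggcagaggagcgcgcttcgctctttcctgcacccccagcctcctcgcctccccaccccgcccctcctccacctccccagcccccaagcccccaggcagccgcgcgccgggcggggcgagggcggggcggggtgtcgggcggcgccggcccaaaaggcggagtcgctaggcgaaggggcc
EFNB1, chrX:68828771-68829020, plus strand: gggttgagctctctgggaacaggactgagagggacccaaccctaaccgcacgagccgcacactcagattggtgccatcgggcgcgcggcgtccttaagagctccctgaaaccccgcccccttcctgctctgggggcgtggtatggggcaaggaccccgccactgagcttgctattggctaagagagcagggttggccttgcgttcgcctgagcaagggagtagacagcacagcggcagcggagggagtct
The EFNA5 window is 79.6% G+C, that of EFNA1 73.2% and that of EFNB1 63.6%, beside a median of 58% over all promoters in the table. EFNA1 holds a single CAGAC, a motif found in 38% of 35116 promoter windows of the same length, and no other match was found in these 3 windows. RefSeq and GENCODE 29 place some starts differently. GENCODE 29 starts EFNA1 at 155127460, so by that annotation the whole EFNA1 window, CAGAC included, lies inside the gene. It starts EFNB1 at 68828997, so the last bases of the EFNB1 window lie inside that gene. The EFNA5 window lies before the gene in both. ACGTG is found in 18.5% of all windows, GGAATG in 11.9% and CAGGTG in 17.5%.

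EFNA5, the A-type ephrin whose loss causes cataract in mice, had the lowest log2 fold change of the 15 family genes tested. It measured 3.14, 4.10, 2.17 and 3.10 CPM in shSmurf1 replicates 1 to 4, against 11.2, 11.3, 11.96 and 13.5 CPM in shControl replicates 1 to 4. Every shSmurf1 library lay below every shControl library. These values rest on 33 to 61 counts per shSmurf1 library and 168 to 214 counts per shControl library. The mean was 26.1% of that in shControl, with a log2 fold change of -1.94 ± 0.16 (SE; adjusted p = 3.51e-08, edgeR). Of all genes tested, 0.978% passed as lower by 2-fold or more. A fall as large as that of EFNA5, with a call, was found in 24 genes, or 0.153% of those tested. EFNA5 was called lower under all 17 other settings that give a test, with log2 fold changes from -2.09 to -1.72. In bulk RNA, fewer cells expressing a gene and less RNA per cell cannot be told apart.

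The surroundings of EFNA5 on the chromosome moved less than EFNA5 itself. The 50 tested genes nearest to it, up to 11.2 Mb away, had a median log2 fold change of -0.09. Their interquartile range was -0.21 to 0.09, and none of them was as low as EFNA5. Of the 50, 11 were called lower and 2 higher, beside 12.2% and 10.3% of all genes tested. Relative to that median EFNA5 lay at -1.84.

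EFNA1, an A-type ephrin and a ligand of EPHA2, was modestly higher in shSmurf1. EFNA1 (ENSG00000169242) lies on the plus strand of chromosome 1 from 155127460 to 155134857. It measured 6.53, 5.37, 5.85 and 6.32 CPM in the shSmurf1 libraries, against 4.42, 4.25, 4.73 and 4.10 CPM in the shControl libraries. The groups did not overlap, although the counts were low, at 63 to 106 per library. The log2 fold change was 0.46 ± 0.15 (adjusted p = 0.0272, edgeR), a 1.38-fold higher level. The call was lost without shSmurf1 replicate 1 or 4, without shControl replicate 1, 2 or 4, with no filter on low counts, and with the G+C trend removed without shSmurf1 replicate 3 (adjusted p = 0.0564 to 0.0817), while the log2 fold change stayed between 0.42 and 0.51 with any library left out. EFNA4, a further A-type ephrin from the same cluster on chromosome 1, measured 8.84, 12.03, 9.20 and 11.4 CPM in shSmurf1, against 9.90, 7.35, 10.4 and 8.89 CPM in shControl. These ranges overlapped, and EFNA4 did not pass (0.18 ± 0.13, adjusted p = 0.383). A same-strand gene, AL691442.1, shares 189 of the 1263 exon bases of EFNA4, so the EFNA4 count is uncertain there. EFNA4 (ENSG00000243364) lies on the plus strand of chromosome 1 from 155063731 to 155069553.

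The remaining A-type ephrins, which were not among the 10, had higher means in shSmurf1. EFNA2, the A-type ephrin with the highest level per length, averaged 13.96 ± 3.10 CPM in shSmurf1 and 10.6 ± 1.16 CPM in shControl (log2 fold change 0.40 ± 0.14, adjusted p = 0.0469). It kept its call under 7 of 17 other settings, and with the G+C trend of each library removed its log2 fold change was 0.21 (adjusted p = 0.145). EFNA3 averaged 3.15 ± 0.261 CPM in shSmurf1 and 2.55 ± 0.666 CPM in shControl and did not pass (0.30 ± 0.21). EFNA5 was the one A-type ephrin of the 5 with a log2 fold change below 0. EFNA3 shares 853 of its 1909 exon bases with AL691442.1.

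Summed over the 5 A-type ephrins per exon length, the level was 27.5 ± 3.88 RPKM in shSmurf1 and 23.6 ± 2.15 RPKM in shControl. The share of EFNA5 in that sum was 1.87%, 2.55%, 1.74% and 1.78% in the shSmurf1 libraries, against 8.40%, 9.43%, 7.97% and 10.0% in the shControl libraries. EFNA2 made up 53.1 ± 5.38% of the sum in shSmurf1 and 47.4 ± 3.15% in shControl, and EFNA4 30.1 ± 4.65% in shSmurf1 and 30.6 ± 2.54% in shControl. These shares describe transcripts per exon length and not proteins on the surface.

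**Figure D2:**
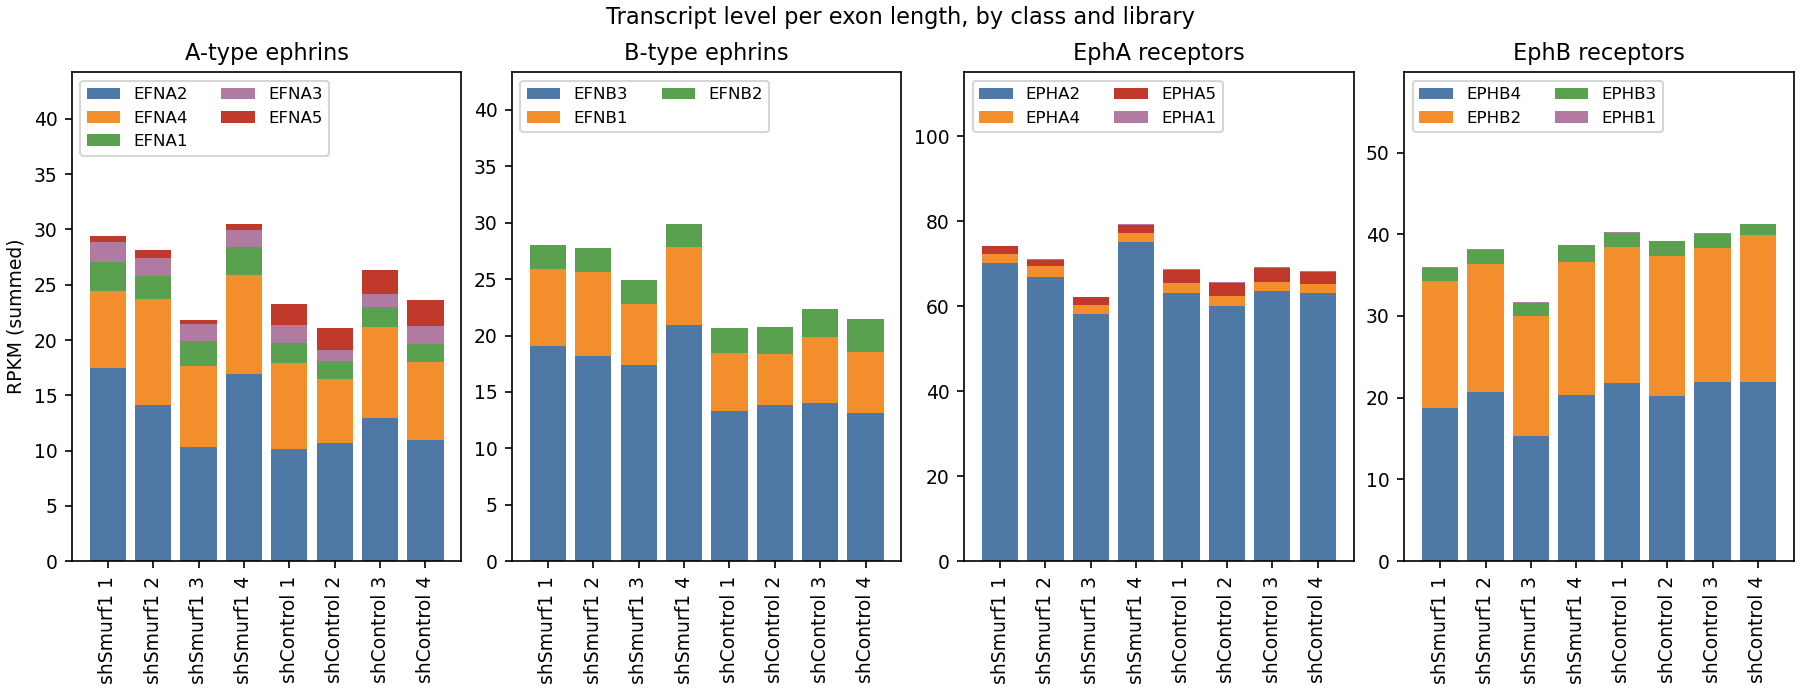
Stacked RPKM of A-type ephrins, B-type ephrins, EphA receptors and EphB receptors in each library, shSmurf1 libraries left of shControl libraries; receptors with at most 7 counts over all libraries are not drawn. EFNA5 and EPHA5, in red, take 1.74% to 2.55% and 2.28% to 2.89% of their classes in shSmurf1, and 7.97% to 10.0% and 4.36% to 4.84% in shControl.

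Of the 3 B-type ephrins, EFNB1 and EFNB3 rose and EFNB2 did not pass. EFNB1, a transmembrane ligand encoded on the X chromosome, measured 22.5, 24.5, 17.9 and 22.9 CPM in shSmurf1, against 16.9, 14.8, 19.4 and 18.04 CPM in shControl. Replicate 3 of shSmurf1 lay inside the control range and the other 3 shSmurf1 libraries lay above it. The test put EFNB1 higher in shSmurf1 (log2 fold change 0.34 ± 0.11, adjusted p = 0.0236), and without that library the value was 0.43 (adjusted p = 0.000425). The call was lost without shSmurf1 replicate 1, 2 or 4 or shControl replicate 1 or 2 (adjusted p = 0.0601 to 0.102). EFNB1 (ENSG00000090776) lies on the plus strand of chromosome X from 68828997 to 68842147. EFNB2, the B-type ephrin that marks arterial endothelium, measured 10.8, 10.7, 10.5 and 10.2 CPM in shSmurf1, against 11.1, 12.3, 12.3 and 14.6 CPM in shControl. Every shSmurf1 library lay below every shControl library by a narrow margin, and the difference did not pass (-0.26 ± 0.11, adjusted p = 0.0965). An antisense gene, AL138689.2, overlaps 1313 of the 5019 exon bases of EFNB2, and without strand information their reads cannot be told apart. EFNB2 (ENSG00000125266) lies on the minus strand of chromosome 13 from 106489731 to 106535662.

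EFNB3, the remaining B-type ephrin and not among the 10, was higher in every shSmurf1 library. It averaged 60.9 ± 4.91 CPM in shSmurf1 and 43.8 ± 1.38 CPM in shControl, with no overlap between the groups (log2 fold change 0.48 ± 0.067, adjusted p = 2.80e-05, edgeR), and was called higher under all 17 other settings. The summed level of the 3 B-type ephrins was 24.9 to 29.9 RPKM in shSmurf1 and 20.7 to 22.3 RPKM in shControl, and EFNB3 accounted for 68.5 ± 2.08% of it in shSmurf1 and 63.8 ± 2.49% in shControl. Over the 8 ephrin genes, 4 rose, beside 10.3% of all genes tested, 1 fell, beside 12.2%, and 3 did not pass. EFNA1, EFNA2 and EFNB1, 3 of the 4 that rose, lost their calls under several of the other settings.

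EPHA2, the cataract-linked receptor and the family member with the highest level, showed no difference between groups that passed the test with all libraries. EPHA2 (ENSG00000142627) lies on the minus strand of chromosome 1 from 16124337 to 16156087. It measured 292, 278, 242 and 312 CPM in shSmurf1, against 262, 249.8, 265 and 263 CPM in shControl. In shSmurf1, replicate 3 lay below every shControl library and the other 3 libraries lay above every one. With all libraries the log2 fold change was 0.11 ± 0.062 (adjusted p = 0.216). Without shSmurf1 replicate 3 it was 0.18 ± 0.040 and passed as higher (adjusted p = 0.000697, edgeR), but with the G+C trend of each library removed it was 0.02 with all libraries (adjusted p = 0.766) and 0.03 without that replicate (adjusted p = 0.670). The transcripts of EPHA2 are 61.4% G+C. Its counts ran from 3674 to 5240 per library.

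EPHA4, a receptor that binds ephrins of both types, measured 16.3, 19.3, 17.2 and 17.2 CPM in shSmurf1, against 18.2, 17.4, 15.8 and 14.95 CPM in shControl. The groups overlapped and the difference did not pass (0.08 ± 0.094, adjusted p = 0.611). An antisense gene, AC079834.2, shares 353 of its 7554 exon bases. EPHA4 (ENSG00000116106) lies on the minus strand of chromosome 2 from 221418027 to 221574202.

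EPHA5, a receptor for A-type ephrins that was not among the 10, also fell. It measured 16.97, 15.9, 17.7 and 17.997 CPM in shSmurf1, against 29.5, 30.9, 32.9 and 29.5 CPM in shControl. The groups lay far apart, with a mean at 55.8% of that in shControl (log2 fold change -0.84 ± 0.080, adjusted p = 2.85e-07, edgeR), and the call held under all 17 other settings. An antisense gene, EPHA5-AS1, shares 535 of its 9833 exon bases. EPHA2 made up 94.1 ± 0.626% of the summed EphA level per length in shSmurf1 and 91.9 ± 0.401% in shControl. EPHA1 averaged 0.669 ± 0.181 CPM in shSmurf1 and 0.822 ± 0.346 CPM in shControl and did not pass (-0.30 ± 0.38). EPHA3, EPHA6, EPHA7, EPHA8 and EPHA10 had between 0 and 7 counts over all 8 libraries and were not tested.

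No EphB receptor passed edgeR's test with all libraries and the filter on low counts, without a G+C correction, and the 2 at high levels, EPHB2 and EPHB4, had log2 fold changes below 0. EPHB2, a receptor for B-type ephrins that also binds ephrin-A5, measured 194, 195, 183 and 204 CPM in shSmurf1, against 208, 214, 206 and 226 CPM in shControl. The groups did not overlap, yet the difference was small and lay just outside the threshold (-0.14 ± 0.050, adjusted p = 0.0603). It passed as lower with DESeq2 (adjusted p = 0.0469) and without shSmurf1 replicate 3 (0.0399) or 4 (0.0452) in edgeR. EPHB2 (ENSG00000133216) lies on the plus strand of chromosome 1 from 22710839 to 22921500. EPHB4, the receptor of ephrin-B2 in venous endothelium, measured 121, 133, 98.9 and 131 CPM in shSmurf1, against 140, 130, 141 and 141 CPM in shControl. The groups overlapped, replicate 3 was the lowest shSmurf1 library, and the difference did not pass (-0.19 ± 0.073, adjusted p = 0.0688). It passed as lower without shSmurf1 replicate 2 (adjusted p = 0.0379) or 4 (0.0423) and with no filter on low counts (0.0148), while without replicate 3 its log2 fold change was -0.10. EPHB3, a receptor for B-type ephrins at a low level here, measured 7.05, 7.86, 7.17 and 8.999 CPM in shSmurf1, against 8.17, 8.16, 7.78 and 5.99 CPM in shControl (0.05 ± 0.14, adjusted p = 0.851). EPHB3 (ENSG00000182580) lies on the plus strand of chromosome 3 from 184561784 to 184582409.

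Removing the G+C trend of each library changed the EphB calls. EPHB2 then lay at -0.19 (adjusted p = 0.000348, edgeR) and EPHB4 at -0.29 (adjusted p = 8.37e-06), and both passed as lower. In that fit 3 of the 10 members were lower, beside 15.1% of all genes tested, and 2 were higher, beside 13.4%. Leaving out shSmurf1 replicate 3 as well left 3 lower and 1 higher, beside 15.1% and 13.1% of all genes, or 28.2% in either direction. EPHB1 and EPHB6, the other EphB receptors, were not tested: EPHB1 had 45 counts over the shSmurf1 libraries and 24 over the shControl libraries, and EPHB6 had 2 in each group. The summed EphB level per length was 31.7 to 38.7 RPKM in shSmurf1 and 39.2 to 41.3 RPKM in shControl. EPHB4 overlaps SLC12A9 on the opposite strand over 69 of its 6435 exon bases, and EPHB2 overlaps the miRNA gene MIR4253 over 34 of 12516.

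**Figure D3:**
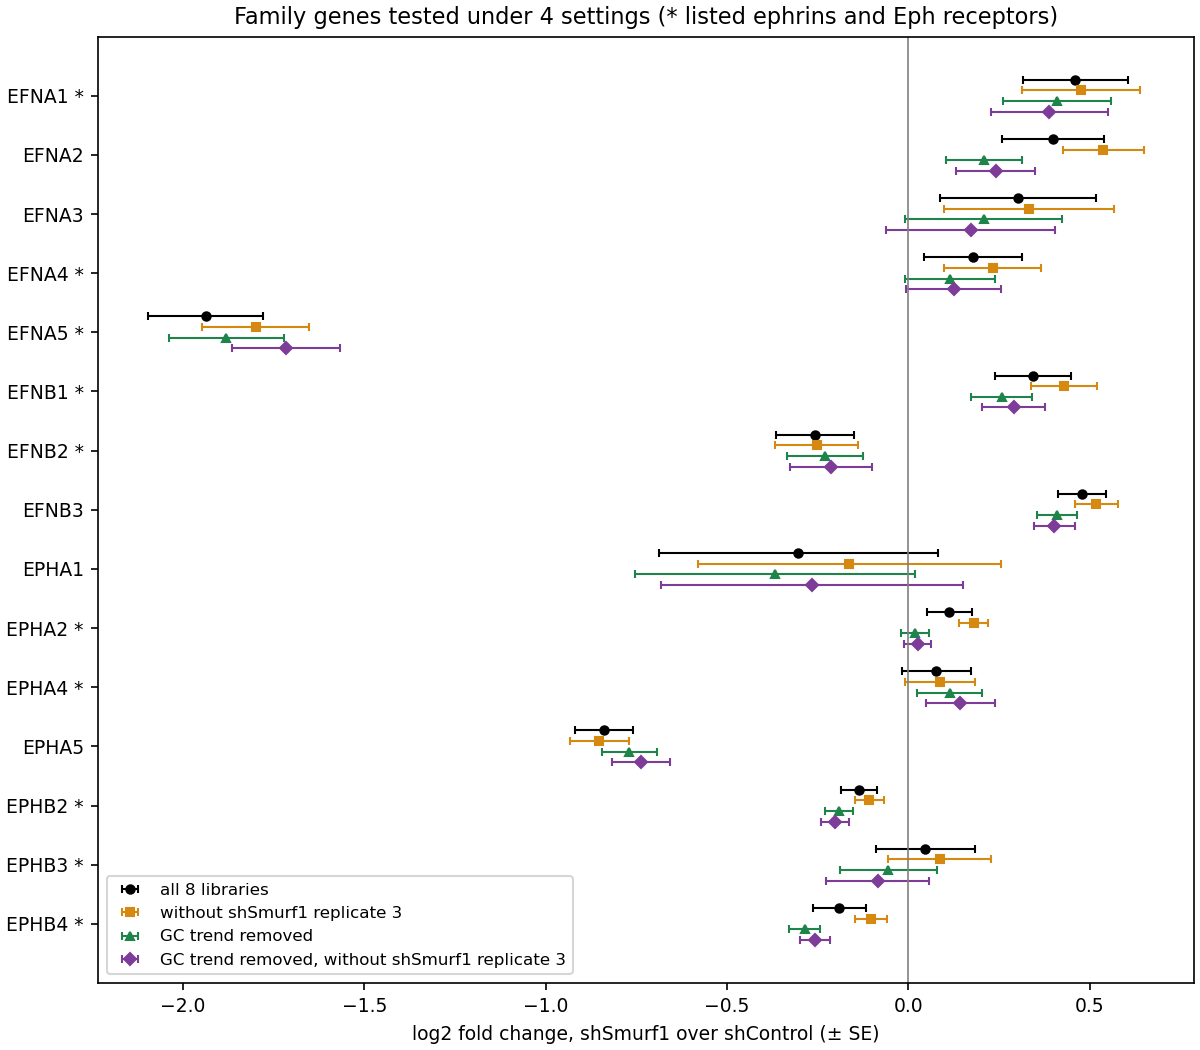
Log2 fold changes (shSmurf1 over shControl, ± SE) of the 15 family genes tested, with all libraries, without shSmurf1 replicate 3, with each library's G+C trend removed, and with both. EFNA5 lies between -1.94 and -1.72 and EPHA5 between -0.85 and -0.74 under these settings, while EPHA2 lies between 0.02 and 0.18.

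EPHB4 lies on chromosome 7 from 100802565 to 100827521, on the minus strand (ENSG00000196411), and SMURF1 lies on the same chromosome from 99027438 to 99144100. The 50 tested genes nearest to SMURF1 had a median log2 fold change of -0.23. Of these, 18 were called lower and 0 higher, beside 12.2% and 10.3% of all genes tested. Some of them are also among the 50 nearest to EPHB4. SMURF1 lay at -0.57 relative to that median. Around EPHA1, on chromosome 7 from 143390289 to 143408892, the median was -0.30, with 25 called lower and 1 higher. The 50 tested genes nearest to EPHB4 had a median log2 fold change of -0.21, with 21 called lower and 0 higher. EPHB4 sat at 0.02 relative to that median. The same held for EPHB2 on chromosome 1, which lay at 0.01 relative to its neighbours' median of -0.15. Of those neighbours, 16 were called lower and 2 higher. EPHA2, also on chromosome 1, lay at -0.01 relative to a neighbour median of 0.12, with 8 neighbours called higher and 0 lower. The differences of these 3 receptors were close to the median of the genes around them. EFNA1 and EFNB1 stood above the median of their neighbours by 0.34 and 0.44, and 46 of the 50 neighbours of each had a lower log2 fold change. Around EFNA1, 6 neighbours were called higher and 1 lower, and around EFNB1, 3 higher and 9 lower.

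**Figure D4:**
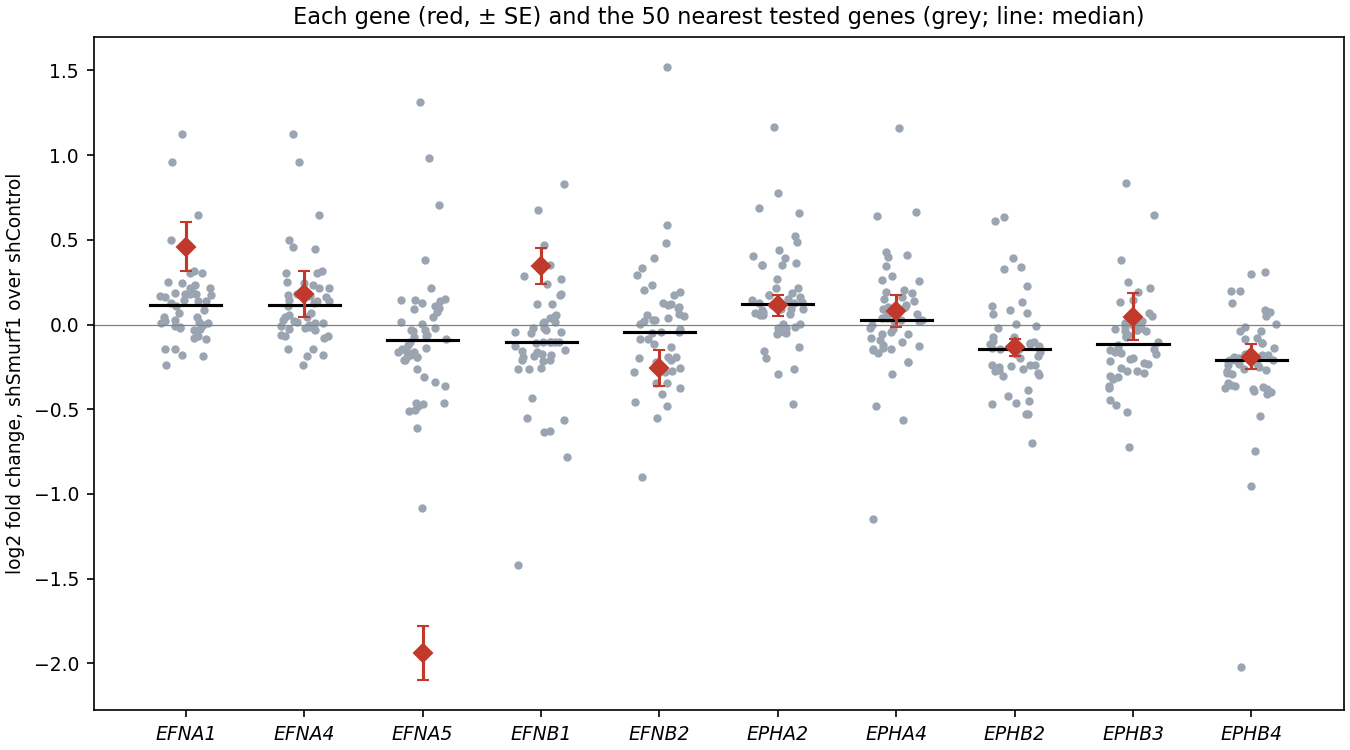
Log2 fold change of each of the 10 members (red, ± SE) beside the 50 tested genes nearest to it on the same chromosome (grey points, line at the median). EFNA5 lies below all of its neighbours, and EPHA2, EPHB2 and EPHB4 lie at -0.01, 0.01 and 0.02 relative to the median of theirs.

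Genes that carry Eph signals into the cell changed in both directions. Of 40 listed adaptors, exchange factors and kinases of forward signalling, 34 were tested, 5 rose and 5 fell, with a median log2 fold change of 0.04. CHN1, α-chimaerin, a Rac inactivator downstream of EPHA4, averaged 23.4 ± 0.924 CPM in shSmurf1 and 13.6 ± 1.31 CPM in shControl (log2 fold change 0.78 ± 0.090, adjusted p = 3.36e-06, edgeR). NGEF, ephexin, the exchange factor that links EphA receptors to RhoA, averaged 50.1 ± 3.25 CPM in shSmurf1 and 33.2 ± 1.56 CPM in shControl (0.59 ± 0.069). GRB2, an adaptor of receptor tyrosine kinases, rose as well (0.34 ± 0.050), and GRB10, a further adaptor, fell (-0.51 ± 0.069). Relative to the median of the 50 tested genes nearest to each, CHN1 lay at 0.84, NGEF at 0.55, GRB2 at 0.03 and GRB10 at -0.71. With 29.4% of the tested genes called, the list lay near the 22.5% of all genes, and without shSmurf1 replicate 3 it had 16 called members, beside 33.7% of all genes.

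Of 13 tested genes of ephrin reverse signalling, 3 fell and 10 did not pass, which is 23.1% called beside 22.5% of all genes. Without shSmurf1 replicate 3, 2 were called higher and 2 lower, beside 16.4% and 17.3% of all genes. TIAM1, NCK2, FYN and SRC are in both the forward and the reverse list, and none of them passed with all libraries. CAV1, caveolin-1, averaged 146 ± 17.1 CPM in shSmurf1 and 268 ± 7.65 CPM in shControl (log2 fold change -0.88 ± 0.065, adjusted p = 9.50e-09, edgeR). STAT3, a transcription factor recruited by B-type ephrins, lay at -0.42 ± 0.050 and RGS3, a regulator of G proteins that binds them, at -0.21 ± 0.072. Relative to the median of the 50 tested genes nearest to each, CAV1 lay at -0.53, STAT3 at -0.36 and RGS3 at -0.15. Of 15 tested genes of cleavage and turnover, APH1B, a subunit of γ-secretase, fell (10.8 ± 0.596 CPM in shSmurf1 and 14.5 ± 0.538 CPM in shControl, log2 fold change -0.43 ± 0.097) and 14 did not pass, among them the sheddases ADAM10 (-0.07) and MMP14 (-0.07). That is 6.67% of the tested genes, beside 22.5% of all genes. Without shSmurf1 replicate 3 it was 2 genes, both lower, beside 17.3% of all genes called lower. Relative to the median of its 50 nearest tested genes, APH1B lay at -0.40.

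Among 37 other genes of inherited cataract, 19 were tested, 1 rose and 4 fell, with a median log2 fold change of -0.09 and 26.3% called, beside 22.5% of all genes. Without shSmurf1 replicate 3, 2 were called higher and 6 lower, beside 16.4% and 17.3% of all genes, or 33.7% in either direction. SLC16A12, a monocarboxylate transporter, fell at a very low level (0.304 ± 0.141 CPM in shSmurf1 and 1.10 ± 0.195 CPM in shControl, log2 fold change -1.83 ± 0.39, adjusted p = 0.00200, edgeR). AGK, a mitochondrial lipid kinase (-0.41 ± 0.079), and VIM, vimentin (-0.31 ± 0.049), fell, COL4A1, a basement membrane collagen, fell by 0.21, and GALK1, galactokinase, rose (0.40 ± 0.080). Relative to the median of the 50 tested genes nearest to each, AGK lay at -0.11, VIM at -0.24 and COL4A1 at -0.13. On the same measure GALK1 lay at 0.10 and SLC16A12 at -1.76.

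The 3 genes whose profiles over the 8 libraries were most like that of EFNA5 were TINAGL1, CA9 and SMOC1, out of 11909 genes whose mean log2 CPM was 2 or more. Their mean absolute differences from the mean-centred log2 CPM profile of EFNA5 were 0.144, 0.182 and 0.195, and their log2 fold changes were -2.16, -1.75 and -1.84. For EPHA2 the 3 closest were MAP2K2, MRTFA and FAM129B, at 0.0127, 0.0209 and 0.0238, with log2 fold changes of 0.11, 0.11 and 0.15. These genes were picked for likeness and their values are a description.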

How the data were processed

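The deposited table holds raw read counts per gene for 8 libraries, with no normalization by the authors. The tools named, per the submitters' processing notes, are featureCounts (1.5.0-p3), HISAT2 (2.0.5), fastp and CASAVA. Neither genome build nor annotation is named in the sources used here. All 58735 gene identifiers were found in GENCODE release 29 (GRCh38), from which symbols, positions, exon lengths and G+C content were taken. Promoters are from RefSeq (GRCh38.p14), where all 10 members matched. The labels' protocols name no strand-marking step.

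Counts were filtered with filterByExpr (minimum count 10), which left 15647 genes, scaled by TMM and tested with edgeR's quasi-likelihood F test (edgeR 4.0.16, R 4.3.3), two-sided, with no covariate and Benjamini-Hochberg adjustment over all genes tested. SE was computed as the absolute log2 fold change over the square root of F. RPKM is CPM divided by the exon length in kilobases. The alternatives were DESeq2 size factors, library totals alone, DESeq2 1.42.0, limma-voom (limma 3.58.1) and other filters on low counts. Others were the replicate number as a block, leaving out each library, and a G+C offset. That offset was a lowess fit on G+C content (span 0.3) of each library's deviation from the gene's mean log2 CPM over both groups. It also takes out any difference between the groups that follows G+C content. The G+C correction without shSmurf1 replicate 3 was chosen after seeing the data. Neighbours are the 50 tested genes nearest by midpoint.

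The members and lists were chosen with earlier results of these data known. Named genes were the 10 members, SMURF1, the rest of the family, up to 4 changed genes per list with the largest change, and the 3 nearest profiles of EFNA5 and EPHA2. Other genes were named after their values were seen. Each title marks its library as a biological replicate, but what was separate between replicates (cultures, transductions or days) is not given, so p-values rest on the spread between these samples, whatever its source. On simulated counts for 15647 genes the test recovered 50%, 72%, 92% and 98% of 50 genes planted at 1.25-, 1.5-, 2- and 4-fold, with 9 other genes called. Far fewer genes were planted than were called in the data. Noise was drawn separately for each gene, with no shift shared across genes such as that of shSmurf1 replicate 3. Recovery and false calls in the data may therefore differ.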

Additional observations from a re-analysis of the deposited data

Results flagged for a closer look

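In 2 of 32 groups of 4 libraries examined for the 16 family and SMURF1 genes tested, 1 library lay far from the other 3. EPHA2 in shControl replicate 2 was 249.8 CPM, below the other shControl libraries, and EPHB4 in the same library was 130.4 CPM, also below them. Chance alone flags about 1 in 20 such groups. Leaving out shControl replicate 2 changed neither call.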

How the results depend on the processing

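SMURF1, EFNA5, EPHA5 and EFNB3 kept their calls under every alternative with a test. Leaving out each library gave 2763 to 5348 changed genes, the highest without shSmurf1 replicate 3, with 0 to 3 members higher, 1 to 3 members lower, 8 to 16 forward signalling genes, 1 or 2 cleavage and turnover genes and 5 to 8 cataract genes called. The share of all genes called was 17.4% to 33.7% over these fits. Members higher numbered 1 with no filter on low counts and 1 with the G+C trend removed without shSmurf1 replicate 3. Members lower numbered 2 with DESeq2, 2 with no filter, 3 with the G+C trend removed and 3 with that correction without shSmurf1 replicate 3, and the cleavage and turnover genes called were 2 and 3 in the last pair of fits. EPHB3, which passed nowhere, lay at -0.0550 with the G+C trend removed and at -0.0847 with that correction without shSmurf1 replicate 3, against 0.0473 with no change, and ranged from -0.0486 to 0.0919 with a library left out. The causes were not tested. Same-numbered libraries did not deviate together (correlations -0.07 to 0.03), and with the replicate number as a block 3192 genes were called, with 2 members higher and 1 lower. At 33 to 214 counts per library, EFNA5 and EFNA1 carry wider errors than EPHA2.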
